A study of Drosophila melanogaster with 4 samples.

Results

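Cytoplasmic ribosomal proteins, together with ribosomal RNA, form the large and small subunits that carry out protein synthesis in every cell. Each ribosome holds most of them in a single copy, their genes are short and very highly transcribed, and growth signalling acts on many of their mRNAs as a group. The genes described here were chosen by name alone: symbols that begin with RpL or RpS followed by a digit or P, and sta, the fly gene for the RpSA protein. Mitochondrial ribosomal protein genes were left out. This gave 93 genes, of which 88 had a mean of at least 1 FPKM (fragments per kilobase of transcript, scaled to the mapped reads of the library) over the 4 libraries, out of 7948 genes at that level and 16758 in the whole table. By symbol alone, 51 of the 88 were counted with the large and 37 with the small subunit, -like genes included.

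The libraries come from OSCs, a cultured line of follicle-cell origin from the Drosophila melanogaster ovary that keeps a working Piwi pathway and lacks germ cells. The control cells received siRNA against EGFP and are called siGFP. The other cells received siRNA against piwi, Mi-2 or Rpd3 for 4 days, and are called sipiwi, siMi-2 and siRpd3. Piwi is the nuclear Argonaute protein of the piRNA pathway, Mi-2 a nucleosome remodeling ATPase and Rpd3 a histone deacetylase. There was 1 library per condition, so no difference below has a replicate check and no p-value is given. Intervals are exact 95% Clopper-Pearson intervals for counting error, and they compare libraries, not conditions.

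Depth was between 32638866 and 38060116 mapped reads. The level of piwi was 73.5 FPKM in siGFP against 38.9 in sipiwi, and that of Mi-2 34.4 FPKM in siGFP against 5.67 in siMi-2. For Rpd3, whose current symbol is HDAC1, siGFP gave 71.3 FPKM and the library labelled siRpd3 104, with 109 in sipiwi and 54.7 in siMi-2. The labelled target was thus not lower in FPKM in the library labelled siRpd3, and every direction given for that library carries this limit. The log2 ratio of HDAC1 to siGFP there was 0.54, below the median of 0.69 over all genes tested. The summed level of 6 follicle cell markers was 204, 270, 332 and 396 FPKM in siGFP, sipiwi, siMi-2 and the library labelled siRpd3. In that order, 6 germline markers summed to 5.09, 8.37, 16.9 and 7.60 FPKM, with zpg at or near 0 and vas at 0.02 FPKM in siGFP. Among the follicle markers, Fas3 was at 1.57 FPKM in siGFP and tj at 64.0.

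Ribosomal protein transcripts took 32.0% of all mapped reads in siGFP. Their share was 24.1% in sipiwi and 31.2% in siMi-2, and it was 14.3% in the library labelled siRpd3, with counting errors too small to show at these digits. Among the 100 genes with the highest FPKM, between 74 and 78 were ribosomal protein genes in each library. The median FPKM of the 88 genes was 4827 (siGFP), 3740 (sipiwi), 4996 (siMi-2) and 2124 (library labelled siRpd3). FPKM is relative to the mapped reads of a library, so less ribosomal protein RNA and more RNA of other genes cannot be told apart, nor can fewer cells of a type and less RNA per cell.

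**Figure D1:**
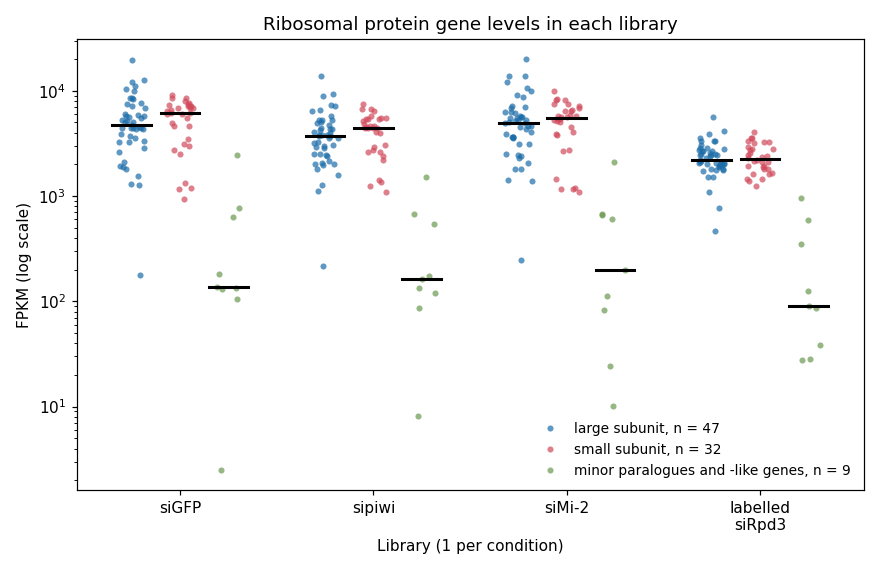
FPKM (log scale) of each ribosomal protein gene in the 4 libraries, for the 47 large-subunit and 32 small-subunit genes that represent 1 gene per protein and the 9 minor paralogues and -like genes; each point is a gene and each bar a median. Levels were tightly grouped in the library labelled siRpd3, where the 79 genes lay between 470 and 5623 FPKM, against 179 to 19441 FPKM in siGFP.

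The highest level belonged to RpL41 (chr2R:24903416-24903935 of dm6, minus strand), which encodes one of the shortest proteins known in eukaryotes. It was at 19441 (siGFP), 13775 (sipiwi), 19870 (siMi-2) and 5623 FPKM (library labelled siRpd3), the first place in all 4. RpL36 followed with 12754, 8872, 13963 and 4183 FPKM in the same order, second in siGFP, in siMi-2 and under the siRpd3 label but not in sipiwi. RpLP2, which forms the stalk of the large subunit with RpLP0 and RpLP1, was at 12077, 9400, 13780 and 3874 FPKM. RpL39 was at 11130, 7393, 12114 and 3557 FPKM, and RpL23 at 10406, 7220, 10535 and 3329 FPKM. All of these were near their siGFP level in siMi-2, lower in sipiwi and lowest in the library labelled siRpd3.

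At the other end stood the genes of low level, most of them paralogues. RpS10a (chr3R:27652760-27653363) was the lowest of the 88, with a mean of 12.2 FPKM. RpS19b had a mean of 61.2 FPKM, RpL7-like 106, RpLP0-like 137 and RpS15Ab 140. Of the 5 genes that did not pass, RpL22-like had a mean of 0.66 FPKM, RpL37-2 0.23 and RpS28a 0.19. RpL10Aa and RpS28-like were listed at 0 in every library. A count of 0 allows up to 3 fragments, which is 0.327 FPKM in siGFP for a transcript of 500 nt. RpL22-like is known from the fly testis.

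Each gene was then set against siGFP as a log2 ratio of FPKM + 0.1, a pseudocount that shrinks the ratios of low genes. In sipiwi the 88 genes had a median of -0.35, with 74 below 0 and 14 above, where the median over all genes tested was 0.29. Only RpL38 was below 0.5-fold and only RpS10a above 2-fold, against 2.54% and 11.4% of all genes tested. Scaled to RpL32, a common RT-qPCR reference that is itself one of the 88, the median in sipiwi was 0.11, and scaled to the median gene it was -0.64.

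RpL38 (chr2R:4515388-4516458, minus strand), which in the mouse is known for the translation of Hox mRNAs, was at 4544 FPKM in siGFP and 2026 in sipiwi. It was at 3653 FPKM in siMi-2 and 776 under the siRpd3 label. Its ratio was -1.17 in sipiwi (interval -1.19 to -1.14), the lowest of the 88, and -2.55 in the library labelled siRpd3, again the lowest. It was below siGFP in all 3 knockdowns, and also when scaled to RpL32, with -0.71, -0.37 and -1.28. Next in sipiwi came RpL29 and RpL5 (both -0.82), RpS15Aa (-0.76) and RpL30 (-0.76). Above 0 stood RpS10a (1.64), RpLP0-like (0.39), RpL22 (0.27), RpS20 (0.24) and RpS24 (0.22). These 5 had low levels in siGFP, between 2.53 and 1162 FPKM.

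In siMi-2 the 88 genes stayed close to siGFP. Their median ratio was -0.02, with 46 below 0 and 42 above, beside 0.13 over all genes tested. RpS5b and RpS10a were above 2-fold and RpS19b was below 0.5-fold, against 15.7% and 3.43% of all genes tested, and none of these 3 is the main gene for its protein. Of the 79 genes that represent 1 gene per protein, none passed 2-fold in either direction, and their ratios ran from -0.95 to 0.62. The lowest was RpL5 and the highest RpL23A. This held for the scaling to mapped reads: RpL5 was below 0.5-fold when scaled to RpL32 (-1.01) or to the median gene (-1.08).

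RpL5 (chr2L:22532279-22536884, minus strand) binds 5S ribosomal RNA together with RpL11 before both join the large subunit. It was at 4466 (siGFP), 2533 (sipiwi), 2313 (siMi-2) and 1515 FPKM (library labelled siRpd3), so that all 3 knockdowns were lower, as they were when scaled to RpL32 (-0.36, -1.01 and -0.29). Its partner RpL11 was at 5290, 3681, 4608 and 2148 FPKM in the same order. In siMi-2 the ratio was -0.95 for RpL5 (interval -0.96 to -0.94) and -0.20 for RpL11. The other low genes in siMi-2 were RpS3A (-0.80), which lies on chromosome 4 (chr4:65225-67207, minus strand) and was at 2514 FPKM in siGFP and 1440 in siMi-2, RpL21 (-0.70) and RpL7-like (-0.67). RpS3A is the one member on chromosome 4, a mostly heterochromatic chromosome. RpL23A, beside the exit of the peptide tunnel, was at 3680 (siGFP), 3572 (sipiwi), 5650 (siMi-2) and 3045 FPKM (library labelled siRpd3). It stood above siGFP in siMi-2 alone, with a ratio of 0.62, but in all 3 knockdowns when scaled to RpL32 (0.42, 0.56 and 0.99). RpS15Ab (0.52) and RpL22 (0.46) followed it in siMi-2.

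In the library labelled siRpd3 the 88 genes had a median ratio of -1.25, with 75 below 0 and 13 above, where the median over all genes tested was 0.69. Below 0.5-fold were 56 of the 88 (63.6%), against 7.45% of all genes tested. Above 2-fold were 3, RpS10a, RpL22 and RpS4, against 40.9% of all genes tested. The direction depended on the scaling: the median was 0.02 with each library scaled to RpL32, which was itself at -1.27, and -1.94 with each scaled to its median gene.

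**Figure D2:**
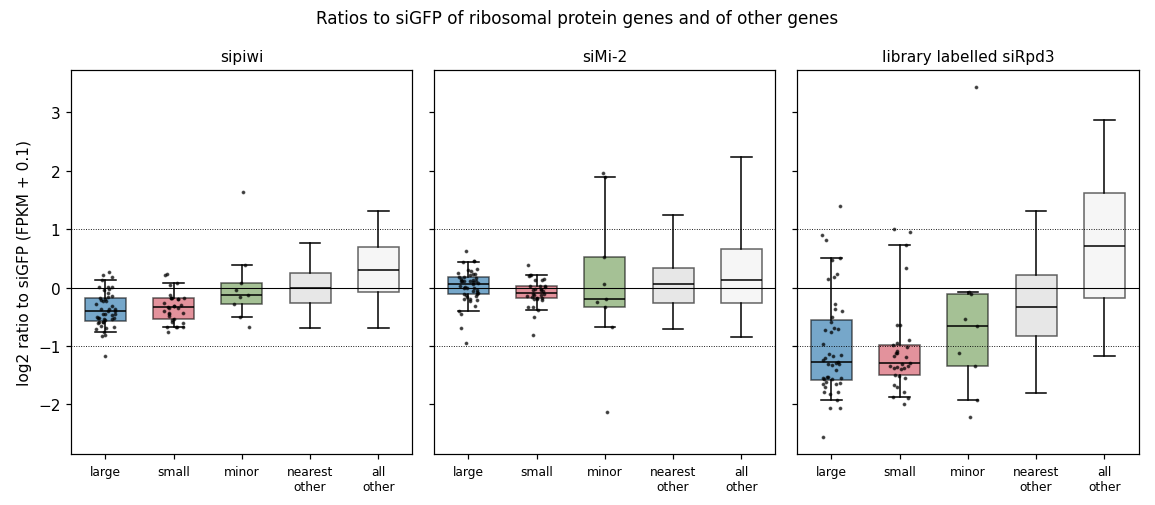
Log2 ratio to siGFP (FPKM + 0.1) in sipiwi, siMi-2 and the library labelled siRpd3 for the 47 large-subunit and 32 small-subunit genes, the 9 minor paralogues and -like genes, the 481 other genes nearest to a member in length and level, and all 7860 other genes. Boxes span the quartiles with the median, whiskers the 5th to 95th percentiles, points are genes and dotted lines mark 2-fold; the medians of the 88 genes were -0.35, -0.02 and -1.25 (0.11, -0.08 and 0.02 when scaled to RpL32).

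RpL32 (chr3R:30045229-30046161, minus strand) was at 5927 (siGFP), 4315 (sipiwi), 6162 (siMi-2) and 2464 FPKM (library labelled siRpd3), close to the middle of the group in each ratio. After RpL38, the lowest ratios in the library labelled siRpd3 were those of RpS5b (-2.21), RpL21 (-2.06), RpL10 (-2.06) and RpS29 (-1.99). RpL10, a late-joining protein near the peptidyl transferase center, was at 8548 FPKM in siGFP and 2048 in that library, and went from the 9th to the 50th place among the 88. RpL21 was at 7564 and 1808 FPKM, and RpS29 at 7136 and 1802. These 3 genes of high level in siGFP thus lay between 1802 and 2048 FPKM there.

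The 3 genes of the P stalk, which recruits the elongation factors, shared a direction in each knockdown before any rescaling. RpLP0 was at 4440, 3573, 5034 and 2027 FPKM in siGFP, sipiwi, siMi-2 and the library labelled siRpd3, and RpLP1 at 7225, 5313, 9888 and 2870. The ratios of RpLP0, RpLP1 and RpLP2 lay between -0.44 and -0.31 in sipiwi, between 0.18 and 0.45 in siMi-2 and between -1.64 and -1.13 in the library labelled siRpd3. In siMi-2 the 3 ratios stayed above 0 when scaled to RpL32, a scaling that also took them above 0 in sipiwi. In the library labelled siRpd3 that scaling gave 0.14 for RpLP0, -0.07 for RpLP1 and -0.37 for RpLP2. Before rescaling, the medians of the 88 were -0.35, -0.02 and -1.25 in sipiwi, siMi-2 and the library labelled siRpd3.

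The 7 listed small-subunit genes of the decoding site and mRNA path, and RpS6 and RpS12, were also below siGFP under the siRpd3 label. RpS3, at the mRNA entry, was at 6821 (siGFP), 4642 (sipiwi), 5428 (siMi-2) and 2137 FPKM (library labelled siRpd3). The gene sta, also listed with the mRNA path, was at 7709, 5725, 8441 and 3538 FPKM. Outside that list, RpS6, the target of S6 kinase, was at 6070, 4436, 5908 and 2087 FPKM, and RpS12, which takes part in the competition between cells of unequal ribosomal protein dose in the fly, was at 4669, 3074, 4087 and 1631 FPKM. Of the 7 listed genes, 6 were below 0.5-fold in the library labelled siRpd3, beside 63.6% of the 88 and 7.45% of all genes tested, and none passed 2-fold in sipiwi or siMi-2. Scaled to RpL32, 1 of all 88 was below 0.5-fold there.

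RpL40, RpS27A and RpS30 are made as fusions with ubiquitin or a ubiquitin-like peptide. RpL40 was at 3266, 2875, 3106 and 2316 FPKM, RpS27A at 9175, 7502, 8248 and 4026, and RpS30 at 6164, 5444, 5622 and 3204. Their ratios in the library labelled siRpd3 were -0.50, -1.19 and -0.94. RpS27A alone was below 0.5-fold, beside 63.6% of the 88 and 7.45% of all genes tested. Scaled to RpL32, the ratios there were 0.77, 0.08 and 0.32, all above 0.

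A group of genes of lower level went the other way in the library labelled siRpd3. RpL22 (chrX:762560-765130, minus strand) was the lowest of the 79, at 179 (siGFP), 215 (sipiwi), 246 (siMi-2) and 470 FPKM (library labelled siRpd3). Its ratio there was 1.40 (interval 1.34 to 1.45), and 0.70 when scaled to the median gene. RpS4 was at 1203, 1242, 1177 and 2421 FPKM with a ratio of 1.01, and RpS24 at 930, 1086, 1086 and 1806 with 0.96. In all, 12 of the 79 were above 0 there, among them RpL3, RpL6, RpL27, RpL28, RpL35, RpL35A, RpS13 and RpS20. Scaled to the median gene, 6 remained above 0, among them RpL22, RpL28, RpS4, RpS13 and RpS24, and scaled to RpL32, 38 of the 79 were above 0.

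These 12 genes were defined by their ratio, and their levels are given as a description. Their siGFP levels lay between 179 and 2113 FPKM (median 1326), and those of the other 67 between 2514 and 19441 (median 5927). Under the siRpd3 label the medians were 2170 and 2276 FPKM. In sipiwi, a comparison that shares the siGFP library, the median ratio was 0.10 for the 12 and -0.44 for the 67, and for siMi-2 it was 0.12 and -0.04.

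The level of a gene in sipiwi takes no part in the ratio of the library labelled siRpd3 to siGFP. By that level, the lowest 27 of the 79 (215 to 2968 FPKM) had a median ratio of -0.41, with 12 above 0. The next 26 (3045 to 4642 FPKM) had a median of -1.34 and the highest 26 (4728 to 13775 FPKM) one of -1.38, with 0 above 0 in both. Across the 79 genes, Spearman's rho of the ratio with the level in sipiwi was -0.58 and Pearson's r -0.74, across all 7860 other genes they were -0.48 and -0.46, and across the 194 other genes in the same range of length and level -0.19 and -0.36. A lower ratio at a higher level was thus seen among genes at large in this library. Genes of 1 library share its preparation and are not independent replicates, so these values are descriptions.

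**Figure D3:**
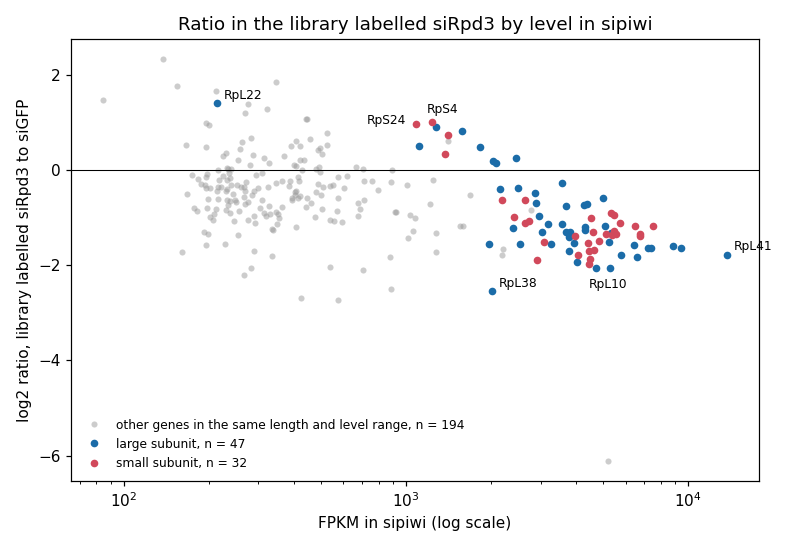
Log2 ratio of the library labelled siRpd3 to siGFP against the FPKM in sipiwi (log scale) for the 47 large-subunit and 32 small-subunit genes and 194 other genes in the same range of transcript length and mean level; each point is a gene. The members with ratios above 0 all lie at or below 2452 FPKM; scaled to RpL32, 38 of the 79 are above 0.

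The spread of levels was narrower in that library among the members and over all other genes, but not clearly among other genes of like length and level. The SD of the log2 level over the 79 genes was 1.04 (siGFP), 0.87 (sipiwi), 1.0 (siMi-2) and 0.53 (library labelled siRpd3). The upper quartile was 2.18, 2.03, 1.81 and 1.49 times the lower in the same order. Over all 7860 other genes the SD was 2.58, 2.47, 2.28 and 2.11. For the 194 other genes of the same range, which bounds their spread, it was 0.99, 0.89, 0.96 and 0.89. The interquartile range of their log2 level was 1.10, 1.08, 1.21 and 1.27, widest in the library labelled siRpd3. The subunits had like medians: in the library labelled siRpd3 the median ratio was -1.27 for the 47 large-subunit genes and -1.29 for the 32 small-subunit genes.

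Ribosomal protein transcripts are short (288 to 1486 nt, median 700.1), and the ratio of other genes under the siRpd3 label went with transcript length. Among other genes the median ratio there was -0.27 under 600 nt, -0.08 from 600 to 1000 nt, 0.37 from 1000 to 2000 nt, 1.20 from 2000 to 5000 nt and 2.03 at 5000 nt or more. Spearman's rho with length was 0.48 over 7860 other genes and 0.18 over the 88. In sipiwi the same medians ran from 0.07 (600 to 1000 nt) to 0.69 (5000 nt or more).

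**Figure D4:**
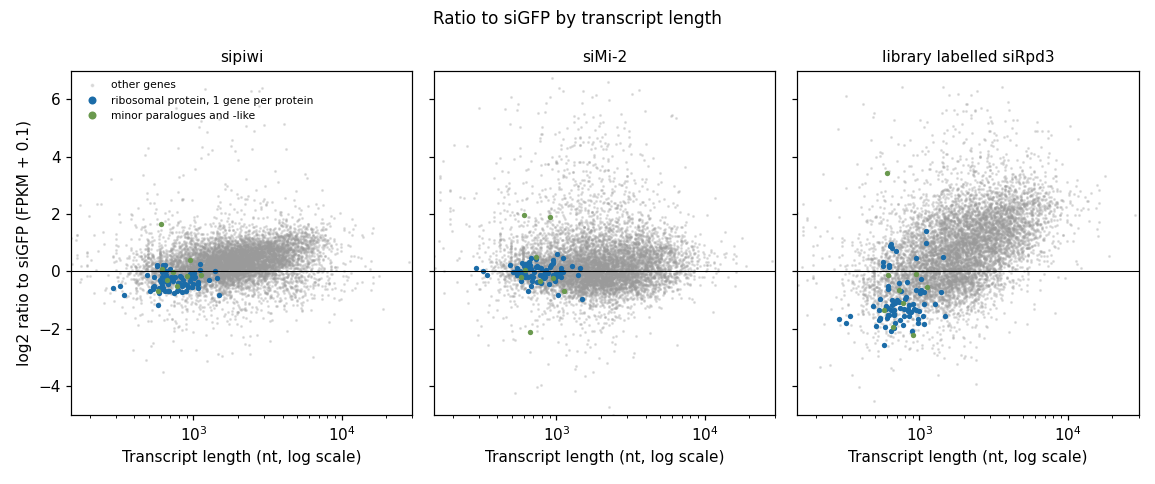
Log2 ratio to siGFP (FPKM + 0.1) against transcript length (nt, log scale) in sipiwi, siMi-2 and the library labelled siRpd3; gray points are other genes, blue the 79 ribosomal protein genes that represent 1 gene per protein and green the 9 minor paralogues and -like genes. In the library labelled siRpd3 the median ratio of other genes goes from -0.27 under 600 nt to 2.03 at 5000 nt or more, and the ribosomal protein genes had a median of -1.25 (0.02 when scaled to RpL32).

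Each gene was therefore set against the 50 other genes nearest to it in transcript length and mean FPKM. In sipiwi these neighbors had a median ratio of -0.13 and the members lay 0.25 lower (median difference -0.25), with 70 of 88 below their neighbors. In siMi-2 the neighbors were at 0.04 and the difference was -0.04, with 51 of 88 below. Under the siRpd3 label the neighbors were at -0.82 and the difference was -0.48, with 65 of 88 below. It was -0.80 against the 194 genes inside the range of length and level and -1.06 against genes nearest in length alone. The distance to genes of like length and level was thus smaller than that to all genes in each library.

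RpL38 was farther below its neighbors than any other member in sipiwi (-1.03), and in the library labelled siRpd3 RpS5b was (-1.85). RpS10a lay farthest above them in sipiwi (1.58) and under the siRpd3 label (3.20). Genes of a like level are few: 79 members but 32 other genes had a mean of at least 1000 FPKM, and the median mean FPKM was 3977 for the 88 and 169.9 for their 481 distinct neighbors. The 32 genes had median ratios of -0.20, -0.06 and -0.98, and 16 of them were below 0.5-fold in the library labelled siRpd3. Against these 32 the members lay at -0.15, 0.04 and -0.27, a reversed sign in siMi-2.

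Paralogues gave the widest spread among the members. RpS5b (chr3R:14900432-14901563, minus strand), a paralogue of RpS5a known from the fly ovary, was at 180.2 (siGFP), 162 (sipiwi), 671 (siMi-2) and 38.8 FPKM (library labelled siRpd3). Its ratio was 1.90 in siMi-2 (interval 1.84 to 1.95) and -2.21 in the library labelled siRpd3 (interval -2.34 to -2.08), while RpS5a was at -0.11 and -1.34. The share of RpS5b in the summed FPKM of the pair was 2.54% (siGFP), 2.84% (sipiwi), 9.49% (siMi-2) and 1.40% (library labelled siRpd3).

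RpS19b (chr3R:23932729-23933530, minus strand) was at 106 (siGFP), 86.8 (sipiwi), 24.1 (siMi-2) and 27.8 FPKM (library labelled siRpd3). Its ratio in siMi-2 was -2.13 (interval -2.32 to -1.94), where RpS19a was at 0.21, and its share of the pair went from 1.68% in siGFP to 0.335% in siMi-2. RpS10a was at 2.53 (siGFP), 8.09 (sipiwi), 10.2 (siMi-2) and 28.2 FPKM (library labelled siRpd3), on 56, 186, 222 and 556 reads. It was above siGFP in all 3 knockdowns, with ratios of 1.64 (interval 1.02 to 2.31), 1.97 (1.36 to 2.62) and 3.43 (2.87 to 4.05), and took at most 1.31% of its pair with RpS10b. RpS5b, RpS10a and RpS19b are known in the fly for germline expression. Of the 6 germline markers, aub was at 0.33 FPKM in siGFP and 8.06 in siMi-2, and vas at 0.02 and 2.66. The others differed less, with bam at 2.24 and 3.27 FPKM and AGO3 at 0.61 and 1.04. Between these libraries bgcn stayed at 1.89 FPKM and zpg at 0. Yp3, from the list for fat body, was also higher in siMi-2 (0.67 and 4.23 FPKM), as was Mhc, from the list for muscle (1.09 and 4.95). The lists were set by name, and whether a gene is specific to its listed tissue was not checked. The remaining fat body and muscle markers were at or near 0 in both libraries. The part of these markers in the results was not tested. Under both other scalings, RpS5b and RpS19b kept their directions in siMi-2 and under the siRpd3 label, and RpS10a kept its direction in all 3 knockdowns.

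**Figure D5:**
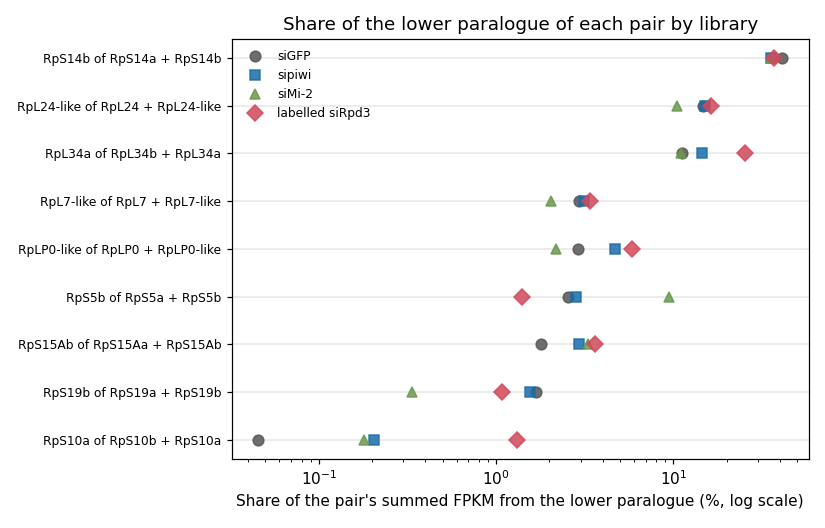
Share of the summed FPKM of each paralogue pair (%, log scale) that came from the lower gene, in siGFP, sipiwi, siMi-2 and the library labelled siRpd3; each symbol is 1 library. RpS5b stands apart in siMi-2 (9.49%), RpS19b is lowest in siMi-2 (0.335%) and RpL34a highest in the library labelled siRpd3 (25.3%).

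RpL34a and RpL34b code for the same protein family member. RpL34a was at 637, 674, 665 and 591 FPKM in siGFP, sipiwi, siMi-2 and the library labelled siRpd3, and RpL34b at 5042, 3933, 5321 and 1742. The share of RpL34a in the pair was 11.2, 14.6, 11.1 and 25.3%. In the last library RpL34a was at -0.11 and RpL34b at -1.53. Scaled to RpL32 they were at 1.16 and -0.27, so which copy differed from siGFP depended on the scaling. RpS14a and RpS14b lie in tandem on chromosome X (7933742 to 7934677 and 7934898 to 7935792, plus strand). They were at 3466, 2726, 3837 and 1641 FPKM and at 2436, 1523, 2119 and 961 FPKM, and the share of RpS14b was 41.3, 35.8, 35.6 and 36.9%. Near-identical copies such as these can exchange reads in mapping, so that the split between them is uncertain.

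RpS15Ab was at 138, 135, 198 and 87.3 FPKM, and RpS15Aa at 7566, 4454, 5822 and 2326. The share of RpS15Ab went from 1.80% in siGFP to 3.62% under the siRpd3 label. RpL37-1 (RpL37a in the file) was at 3922, 2968, 3642 and 2003 FPKM, RpS28b at 3155, 2640, 2730 and 1458, and RpL10Ab at 2866, 2486, 2439 and 2213, each with its other copy below the minimum. The ratio of RpL10Ab in the library labelled siRpd3 was -0.37.

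RpL7-like, RpL24-like and RpLP0-like, paired here with RpL7, RpL24 and RpLP0, are related to assembly factors in yeast. RpL7-like was at 131, 120.3, 82.0 and 89.6 FPKM beside 4329, 3698, 3914 and 2552 for RpL7. RpL24-like was at 766, 541, 607 and 354 FPKM beside 4418, 3045, 5133 and 1800 for RpL24. RpLP0-like was at 133, 175, 113 and 127 FPKM, with ratios of 0.39, -0.24 and -0.07, where RpLP0 had -0.31, 0.18 and -1.13. In siMi-2 all 3 were below siGFP (-0.67, -0.34 and -0.24), as were 46 of the 88 members.

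Position and intron content were compared as descriptions. The members are spread over 6 chromosomes or arms, with 18 on 2L, 19 on 2R, 14 on 3L, 21 on 3R, 1 on 4 and 15 on X. Among the 79, median ratios in the library labelled siRpd3 ran from -1.55 on 2R to -0.97 on 3R over the arms with more than 1 gene. The 29 genes with a snoRNA inside, RpS5a with 14 of them, had a median of -1.14 and the 50 without one -1.30. In sipiwi these medians were -0.32 and -0.40. In 29 of the 88, exons overlap those of another gene, for instance RpL12 and RpL39 at their ends, and without strand in the counting the reads of both partners cannot be separated.

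Transcripts of 1 gene moved together. For 67 members with at least 2 transcripts of 100 FPKM or more, the median range of the ratios within a gene was 0.04 (sipiwi), 0.04 (siMi-2) and 0.06 (library labelled siRpd3). RpL35 had the widest, from -0.10 to 0.35 in the library labelled siRpd3. Transcripts of a gene share most of their sequence, so this shows how evenly the reads were divided more than it shows separate measurements.

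Other parts of the translation machinery gave other medians. The 73 mitochondrial ribosomal protein genes had median ratios of -0.10 (sipiwi), -0.15 (siMi-2) and -0.30 (library labelled siRpd3), with 9 below 0.5-fold in the last (12.3%, against 7.45% of all genes tested). The 25 initiation factor genes had medians of -0.11, -0.48 and 0.49. In siMi-2, eIF3c (-1.47) and eIF3b (-1.10), core subunits of the factor that binds the small subunit, were below 0.5-fold, as were 3.43% of all genes tested. Under the siRpd3 label, 6 initiation factor genes were above 2-fold (24.0%, against 40.9% of all genes tested), led by eIF5 (1.69). Below 0.5-fold were 3 (12.0%, against 7.45%), with eIF3f1 lowest (-1.34). The 9 genes on the list of elongation and termination factors, which also holds Tctp, had medians of -0.03, -0.07 and 0.05. Among them eEF1alpha1, which brings aminoacyl-tRNA to the ribosome, was at 1295 FPKM in siGFP and 2799 under the siRpd3 label. The highest ratio there was that of eRF3 (2.06). Tctp, on the list but not itself such a factor, was at 3185 and 926 FPKM.

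Genes that build ribosomes were mostly above 0 in sipiwi, as was the median of all genes. Of 25 such genes, 24 were above 0 there (median 0.43), beside 5583 of all 7948 genes tested. Ns1, a nucleostemin GTPase, was above 2-fold (1.08), as were 11.4% of all genes tested. In siMi-2, 21 of 25 were below 0 (median -0.33), beside 3319 of all 7948 genes tested. Non1 was below 0.5-fold there (-1.64), as were 3.43% of all genes tested. Under the siRpd3 label, 22 were above 0 (median 0.45), beside 5532 of all 7948 genes tested. Above 2-fold there were 8 of the 25 (32%), against 40.9% of all genes tested, and the highest were Nopp140 (2.95) and Nop17l (2.93). The 16 subunits and factors of RNA polymerases I and III had medians of 0.31, -0.15 and 0.18, and in sipiwi Tif-IA, the initiation factor of polymerase I, was at 1.06. The 25 assembly genes were beside all-gene medians of 0.29, 0.13 and 0.69, so that against these their median was lower in siMi-2 and under the siRpd3 label.

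Growth regulators varied singly. Under the siRpd3 label, 7 of 12 tested were above 2-fold against 40.9% of all genes, led by gig (2.52), the fly Tsc2. Thor, the 4E-BP translation repressor, was at 58.0 (siGFP), 34.1 (sipiwi), 66.2 (siMi-2) and 11.1 FPKM (library labelled siRpd3). Myc, which drives ribosome production in the fly, was at 1.99, 0.72, 1.91 and 2.73 FPKM, with a ratio of -1.35 in sipiwi.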

How the data were processed

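The authors mapped the reads with bowtie2 (version 2.2.4 in the submitters' processing notes, default parameters) to dm6 and a set of gene and transposon transcripts, and deposited FPKM values per transcript. A value is scaled to transcript length and mapped reads, and no strand setting is given in the sources used here. Transcripts were summed per gene. Because values step by whole reads, read numbers and lengths could be worked out: 97.4 to 98.0% of the values tested came out whole within 0.02 reads, and every row above 0 received a length. No count model was used. At 1 to 10 reads, 75.5 to 76.1% of transcripts had an even number, so 2 reads were counted as 1 fragment in every interval. PCR copies are not independent molecules, so intervals cover counting error only.

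Of the rows, 99.3% matched RefSeq symbols. Coordinates come from the Ensembl dm6 annotation. Log2 ratios used a pseudocount of 0.1 FPKM over genes with a mean of at least 1 FPKM, and calls used 2-fold and 0.5-fold. Similar genes are the 50 other genes nearest in log2 length and log2 mean FPKM, each divided by its SD. A minor paralogue is the member of a pair with the lower mean. Genes were named by rule: the 5 highest and 5 lowest by mean FPKM, the 5 highest and 5 lowest ratios per knockdown, all paralogues and members of known role. From the other lists, some genes past 2-fold or below 0.5-fold were named, not always those with the largest ratio. RpL3, RpL6, RpL27, RpL28, RpL35, RpL35A, RpS13, eIF3f1, eEF1alpha1, Tctp, Thor and the pair RpL12 and RpL39 were named after their values were seen. Members and lists were chosen with earlier results of these data known. One result that the naming rule selects is not reported here. Scripts were tested on simulated data. Of the per-library columns, 0 lacked a sample. The transposon table was used for mapped totals only. Figures were drawn with matplotlib 3.10.9 and values computed with scipy 1.17.1, pandas 2.3.3 and numpy 2.4.6 in Python 3.11.15.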

Additional observations from a re-analysis of the deposited data

How the results depend on the processing

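With 1 library per condition, no value here has a replicate check, and depth limits only genes of low level such as RpS10a. No paired analysis was possible because each condition has 1 library and the labels give no replicate numbers. Of 127 values under alternatives, 77 kept their size within counting error or 1.5 times their count and the others moved, 3 of them to the other sign (the medians in sipiwi and the library labelled siRpd3 scaled to RpL32, and the siMi-2 difference from genes of at least 1000 FPKM); the pseudocounts of 0.01 and 1 FPKM moved none. The cause of each difference was not tested. Medians and differences below are log2 values in the order sipiwi, siMi-2 and the library labelled siRpd3.

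Scaled to RpL32 the medians were 0.11, -0.077 and 0.018, and below 0.5-fold were 0, 2 and 1, with 15 above 2-fold in the last. Scaled to the median gene they were -0.64, -0.15 and -1.94, with 5 and 2 below in sipiwi and siMi-2 and 1 above in the last. With the members left out of the mapped reads (an alternative chosen after seeing the data, like the next 3) they were -0.51, -0.039 and -1.58. With 1 gene per protein, 0 were above 2-fold in sipiwi, 0 passed either threshold in siMi-2, the median in the last was -1.29, and the differences from similar genes in sipiwi and the last were -0.27 and -0.50. Without members that overlap another gene the last median was -1.30. Against other genes of at least 1000 FPKM the differences were -0.15, 0.035 and -0.27. With no minimum level, 3 and 2 were below in sipiwi and siMi-2, the last median was -1.20, and the differences were -0.27, -0.067 and -0.52. With the most highly expressed transcript, the medians in siMi-2 and the last were -0.047 and -1.28 and the differences -0.28, -0.11 and -0.53. At 1.5-fold, 17 and 5 were lower in sipiwi and siMi-2 and 7 higher in the last. Against genes inside the range of length and level the differences were -0.30, -0.060 and -0.80, and against genes nearest in length alone -0.43, -0.19 and -1.06. As a share of summed FPKM, the members took 49.2, 41.3, 48.6 and 29.4% (siGFP first, then in the same order).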
